A study of Mus musculus with 8 samples.

Results

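The Z-disc is the protein plate that anchors the thin filaments of neighbouring sarcomeres, and 10 genes of its lattice and of its stretch-responsive partners were followed in mouse soleus muscle. They were Actn2, Actn3, Myoz1, Myoz2, Ldb3, Tcap, Csrp3, Ankrd1, Ankrd2 and Myot, taken by name from the array design, and they made up 10 of the 22221 genes measured, with 15 of the 56605 probes. Gene expression had been measured in soleus from male C57BL/6J mice, all 14 weeks old and all kept on a high-fat diet. In 4 samples the mice had been dosed by mouth for 6 weeks with Porphyromonas gingivalis, a bacterium of human gum disease, in physiological saline. In the other 4 samples they had received only the saline solution, and the comparison asked how the bacterium affects muscle gene expression.

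Alpha-actinins cross-link the actin filaments at the Z-disc, and the smaller proteins myotilin, cypher and the calsarcins bind to them. The calsarcins also bind the phosphatase calcineurin. Telethonin ties the ends of titin together, and muscle LIM protein sits nearby and takes part in sensing load. The ankyrin-repeat proteins of Ankrd1 and Ankrd2 bind titin in the I-band and are known for rising when muscle is stretched or overloaded. Mouse soleus is a mixed postural muscle rich in slow and fast oxidative fibres, with few fibres of the fastest type.

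Each value is the log2 of the background-subtracted signal minus the array's 75th percentile, so that 0 marks a signal brighter than that of 75% of the gene spots. Levels are therefore comparable between arrays for 1 probe and not between probes. All 8 arrays lay on 1 slide, with the groups on opposite sides of it, so group and slide side cannot be told apart. Separate mice for the arrays are not stated in the labels, so p-values here measure only how the samples vary, which may be technical. Relative to the sample labels, the columns of the authors' deposited table carry the groups exchanged. In all, 8 of 8 columns matched best the array of the other group with the same number, and 0 that of their own name. The directions below follow the sample labels, and would be turned if the table were right. The 75th percentile of the signal ran from 696 to 764 on the saline arrays and from 648 to 738 on the P. gingivalis arrays (exact permutation p = 0.571). The median signal ran from 57.2 to 66.4 and from 49.9 to 58.1 (exact permutation p = 0.0571). Taken over probes, with the spots of a probe averaged, the gap between the 75th percentile and the median was 3.25 to 3.35 on the log2 scale with saline and 3.37 to 3.48 with P. gingivalis, without overlap, so median and 75th-percentile scaling set the groups differently. The lowest 75th percentile was that of P. gingivalis 2, the 1 array whose extraction status was "to be evaluated", with a spike-in slope of 0.890 out of range. Probes that passed the scanner software's background test numbered 30177 to 34075 per saline array and 34852 to 35365 per P. gingivalis array (exact permutation p = 0.0286, the smallest that 4 against 4 allows).

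The 2 sarcomeric alpha-actinins were read by probes of 60 bases that each span an intron in mouse build mm9, Actn2 at chr13:12364990-12367362 and Actn3 at chr19:4861727-4862212. They are shown because Actn2 and Actn3 varied so differently from array to array. Written 5′ to 3′, with the longest run of bases that both share in capitals, they read:
Actn2: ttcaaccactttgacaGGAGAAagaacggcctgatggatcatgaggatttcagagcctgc
Actn3: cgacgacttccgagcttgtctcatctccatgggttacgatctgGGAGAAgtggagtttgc
The shared run was 6 bases long. In the best ungapped overlap of the 2 probes, 13 of 19 bases matched. Neither probe was compared with the transcript of the other gene, so this does not show which transcripts each one binds.

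RefSeq promoters of build GRCm38.p6 were held for 6 of the 10 genes, 8 promoters in all, and the 150 bases before each start were searched on both strands. The pair below is shown because Myoz2 was the steadiest of the 10 genes over the arrays and Ankrd1, a stretch-responsive gene, one of the least steady. Myoz2 (chr3:123034988-123035137, minus strand) has a match to the MEF2 pattern in capitals at -33. Ankrd1 (chr19:36119845-36119994, minus strand) has an MCAT element, the motif bound by TEAD factors, in capitals at -123:
Myoz2: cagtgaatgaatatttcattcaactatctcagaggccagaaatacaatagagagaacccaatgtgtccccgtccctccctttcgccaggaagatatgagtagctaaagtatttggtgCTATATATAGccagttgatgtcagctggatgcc
Ankrd1: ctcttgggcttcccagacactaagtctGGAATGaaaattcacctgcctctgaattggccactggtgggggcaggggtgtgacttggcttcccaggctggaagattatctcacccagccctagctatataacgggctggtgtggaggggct
MCAT (CATTCC, here on the other strand) was present in 7.59% of all 32851 promoter windows of that length and the MEF2 pattern in 1.67%. That pattern, rich in A and T, can also match a TATA box, and the stretch at -33 was not assigned to either. A CArG box, present in 0.916% of windows, lay at -35 in one Ldb3 promoter and at -109 in the other, which overlap. E-boxes (CANNTG), present in 47.7% of windows, were found in the promoters of Actn2, Myoz2, Csrp3, Ankrd1 and Ankrd2. Such matches describe the sequence and not the use of a site.

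None of the 10 genes differed between the groups at an adjusted p under 0.05 in limma's fit over all genes, where 26 of 22221 genes (0.117%) did, 0.036% higher and 0.081% lower with P. gingivalis. Before adjustment, p was under 0.05 for 2 of the 10 (20%), Tcap and Myoz1, both higher, against 4383 of all genes (19.7%), 10.1% higher and 9.66% lower. The levels were higher on average in the P. gingivalis arrays for 9 genes and lower for 1, Csrp3, while 47.7% of all genes were higher. The median log2 difference over the 10 was 0.11, against -0.01 over all genes. That count of directions moved with the scaling of the arrays. It was 6 higher and 4 lower after quantile normalization, 10 and 0 after median centring, which put the median of all genes at 0.14, and 3 and 7 when each array was scaled to 8 skeletal muscle markers, which put it at -0.20.

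**Figure D1:**
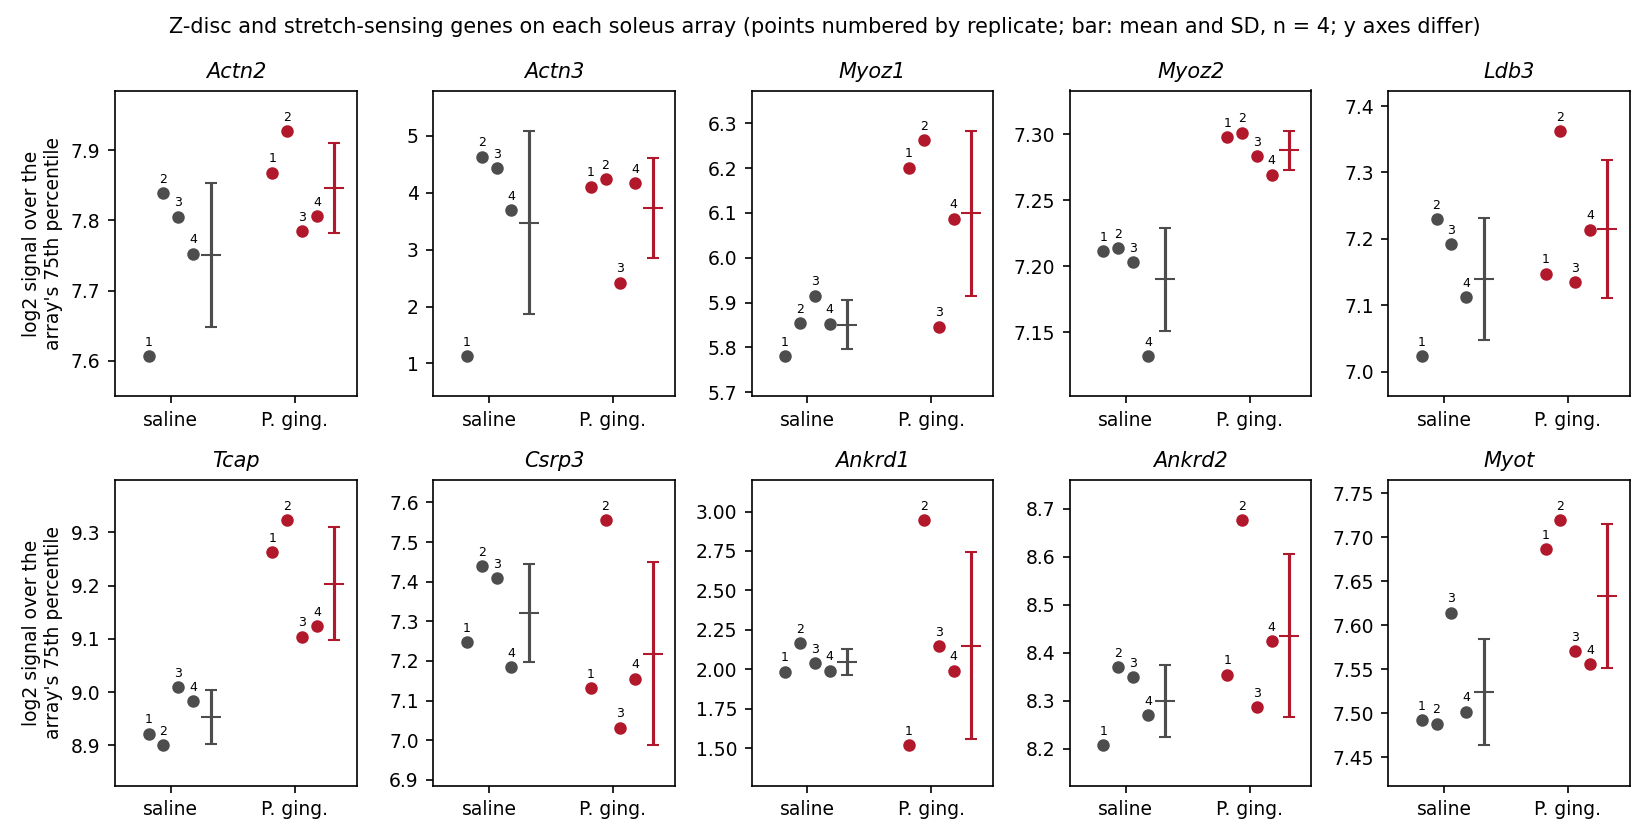
Log2 signal over the array's 75th percentile for each of the 10 genes on every array, grouped as saline (grey) and P. gingivalis (red), points numbered by replicate, bars giving mean and SD (n = 4), with a y axis of its own for each gene. The groups stand apart for Tcap and Myoz2 and overlap for the other 8 genes, and the saline values of Actn3 reach from 1.13 to 4.64.

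Tcap encodes telethonin, the titin cap, and had the smallest p of the 10 genes. Its probe lies at chr11:98246127-98246186. The values were 8.92, 8.90, 9.01 and 8.98 on the saline arrays and 9.26, 9.32, 9.10 and 9.12 on the P. gingivalis arrays. Every P. gingivalis array was above every saline array. The means were 8.95 ± 0.051 (SD, n = 4) and 9.20 ± 0.11 (SD, n = 4), a difference of 0.25 ± 0.067 (SE; 95% interval 0.10 to 0.40) and limma's adjusted p was 0.115. Without P. gingivalis 2, the difference was 0.21. Groups did not overlap for 2 of the 10 genes (20%), Tcap and Myoz2, both higher, against 13.4% of all genes (7.35% in that direction).

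The calsarcins link alpha-actinin to calcineurin, Myoz1 in fast fibres and Myoz2 in slow fibres and heart. Myoz1 (chr14:21468483-21468542) stood at 5.78, 5.85, 5.92 and 5.85 with saline and at 6.20, 6.26, 5.85 and 6.09 with P. gingivalis. On 3 of the 4 P. gingivalis arrays it was above all saline arrays, and P. gingivalis 3 lay among them. The difference was 0.25 ± 0.094 (SE; 95% interval 0.03 to 0.47), with an unadjusted p of 0.0301 and an adjusted p of 0.207 by limma. Without P. gingivalis 2 it was 0.19.

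Myoz2 was the least variable of the 10 genes, with a within-group SD of 0.029 on the log2 scale that was lower than for all but 0.369% of genes. Its values were 7.21, 7.21, 7.20 and 7.13 with saline and 7.30, 7.30, 7.28 and 7.27 with P. gingivalis. The groups did not overlap, yet the whole spread over 8 arrays was 1.12-fold. The difference was 0.10 ± 0.046 (SE; 95% interval -0.0094 to 0.20), adjusted p = 0.290 by limma. This probe spans an intron (chr3:122709486-122716527). A neighbouring Myoz2 probe gave 0.14 ± 0.066 (SE), adjusted p = 0.296 in the fit of single probes by limma, and a probe to another transcript, at chr3:122727172-122727231, gave -0.06 ± 0.14 (SE), adjusted p = 0.833.

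Beside the differences of Tcap, Myoz1 and Myoz2, all 8 skeletal muscle markers measured (Acta1, Ckm, Mb, Myh7, Myh2, Ttn, Neb and Ryr1) were higher on average in the P. gingivalis arrays, with a median log2 difference of 0.19, a range of 0.089 to 0.32 and 0 past the adjusted threshold. The log2 of their summed signal ran from 11.44 to 11.54 with saline and from 11.63 to 11.79 with P. gingivalis (exact permutation p = 0.0286, the smallest possible). Summed levels were lower in the P. gingivalis arrays for 5 endothelial markers (5.45 to 5.54 and 5.09 to 5.23, exact permutation p = 0.0286). The 5 did not move together. On average 3 were lower (Egfl7 -0.40, Kdr -0.55 and Cdh5 -0.13) and 2 higher (Pecam1 0.18 and Tie1 0.18), with Egfl7 the brightest in the sum. In bulk muscle, fewer cells of a type and less RNA per cell cannot be told apart. When arrays were scaled to the skeletal muscle markers, the difference was 0.057 for Tcap, 0.056 for Myoz1 and -0.09 for Myoz2. This scaling lowered the difference of every gene by the same amount and put the median of all genes at -0.20. It is therefore no test of these 3 genes, and the part of muscle RNA as a whole in their values was not tested. Median centring instead moved all 3 past the threshold, with limma's adjusted p at 0.0268 for Tcap (0.40), 0.0376 for Myoz1 (0.40) and 0.0355 for Myoz2 (0.25), alongside 2385 of all genes. A trended and robust variance put Tcap past it as well (adjusted p = 0.0470 by limma), alongside 567 of all genes.

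**Figure D2:**
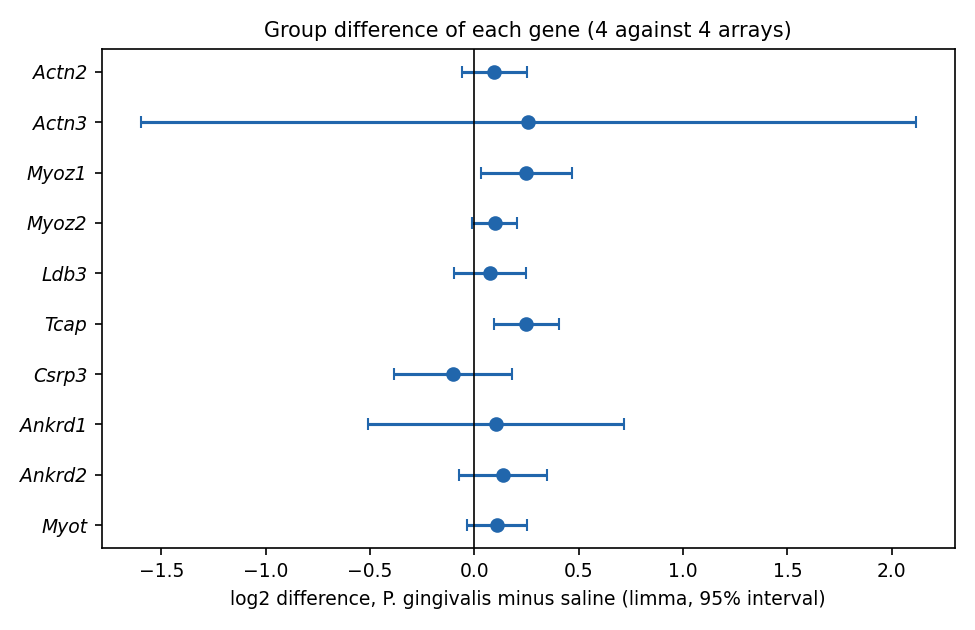
Log2 difference, P. gingivalis minus saline, for each of the 10 genes with its 95% interval from limma (4 against 4 arrays). The intervals of Myoz1 and Tcap lie above 0 before adjustment, and that of Actn3 runs from -1.60 to 2.12.

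Actn2 encodes the alpha-actinin present in all skeletal fibres and in heart. It stood at 7.61, 7.84, 7.81 and 7.75 on the saline arrays and at 7.87, 7.93, 7.78 and 7.81 on the P. gingivalis arrays. The groups overlapped, and saline 1 was the lowest array. The difference was 0.10 ± 0.068 (SE; 95% interval -0.06 to 0.25), adjusted p = 0.468 by limma. Of 2 further Actn2 probes, one at chr13:12361696-12361755 was left out of the fit because its spot on P. gingivalis 3 carried an outlier flag. With that spot kept it averaged 8.86 ± 0.017 (SD, n = 4) with saline and 8.91 ± 0.21 (SD, n = 4) with P. gingivalis. Its saline values were 8.85, 8.87, 8.85 and 8.88, so saline 1 was not set apart on this probe. The other, to another transcript at chr13:12400548-12400607, gave -0.22 ± 0.25 (SE), adjusted p = 0.652 in limma's fit of single probes.

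Actn3 encodes the alpha-actinin of fast glycolytic fibres and was by far the most variable of the 10 genes. It read 1.13, 4.64, 4.43 and 3.69 with saline and 4.11, 4.24, 2.42 and 4.17 with P. gingivalis. The low arrays were saline 1 and P. gingivalis 3, 1 in each group, and the groups overlapped almost wholly. From the lowest to the highest array the signal spanned 11.4-fold, and the within-group SD of 1.30 exceeded that of 99.6% of all genes. The group means were 3.47 ± 1.61 (SD, n = 4) and 3.73 ± 0.88 (SD, n = 4). Their difference of 0.26 ± 0.80 (SE), adjusted p = 0.883 by limma, became -0.52 without saline 1 and 0.70 without P. gingivalis 3. With this spread, the interval of -1.60 to 2.12 leaves changes of several-fold undetectable.

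Other genes of the fastest fibres were uneven on the same arrays. Myh4, the myosin heavy chain of type IIb fibres, stood at 1.95, 7.63, 7.70 and 4.98 with saline and at 6.76, 7.66, 4.03 and 7.11 with P. gingivalis, the highest within-group SD of all 22221 genes. Pvalb, the calcium buffer parvalbumin, stood at 4.997, 6.80, 6.92 and 6.26 and at 6.64, 6.78, 5.50 and 6.63. Mybpc2, fast myosin-binding protein C, stood at 3.51, 5.29, 4.88 and 4.77 and at 4.87, 4.96, 3.83 and 4.74. All 3 were lowest in saline 1 and next lowest in P. gingivalis 3, as was Actn3. The other 8 fast fibre markers, Myh1 and Atp2a1 among them, spanned at most 0.66 on the log2 scale. The summed signal of the 11 fast markers ran from 11.41 to 11.64 with saline and from 11.56 to 11.93 with P. gingivalis (exact permutation p = 0.114). That of 10 slow fibre markers ran from 11.61 to 11.72 and from 11.75 to 11.86 (exact permutation p = 0.0286).

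**Figure D3:**
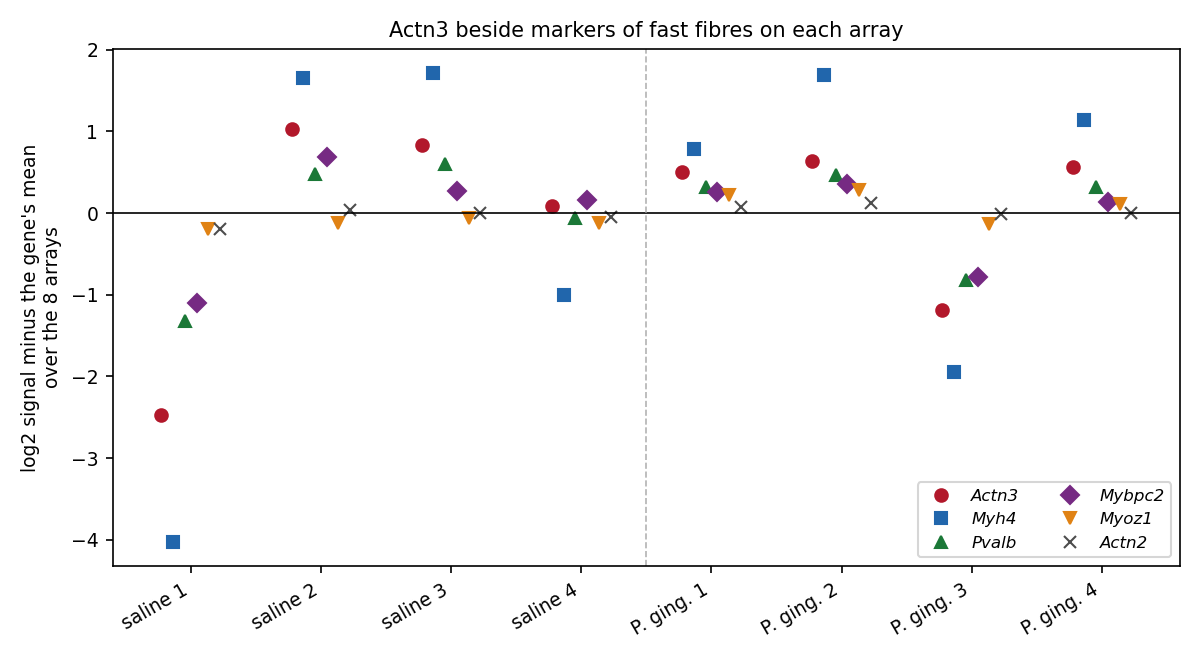
Log2 signal of Actn3, Myh4, Pvalb, Mybpc2, Myoz1 and Actn2 on each array, each minus that gene's mean over the 8 arrays, with saline arrays left of the dashed line. Saline 1 and P. gingivalis 3 lie lowest for Actn3, Myh4, Pvalb and Mybpc2, while Myoz1 and Actn2 stay near 0 on every array.

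Each of the 10 genes was set against the mean of the 11 fast fibre markers over the 8 arrays, 10 relations in all with exact permutation p-values. As a mean of log2 values, it moves mostly with the 3 uneven markers Myh4, Pvalb and Mybpc2: on saline 1 it lay 0.72 below its mean over the arrays, while the log2 of the summed signal lay 0.22 below. Actn3 gave a Pearson r of 0.95 (p = 0.0015, adjusted 0.0074) and a Spearman rho of 0.71 (p = 0.0576, adjusted 0.0960). Within groups r was 0.99 over the saline arrays and 0.95 over the P. gingivalis arrays, 4 arrays each. Without saline 1 and P. gingivalis 3, the arrays farthest from the median, r was 0.62 (exact permutation p = 0.150), so the relation rests on those arrays. Without saline 1 alone it was 0.85 (adjusted exact permutation p = 0.102). The permutations ran over all 8 arrays without regard to group, so a shift shared by a group can enter r.

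Actn2 (r = 0.93, adjusted exact permutation p = 0.0074) and Ldb3 (r = 0.87, adjusted exact permutation p = 0.0146) also passed with Pearson's r, over much smaller ranges of 0.32 and 0.34 on the log2 scale. Their rho values were 0.81 and 0.76, each with an adjusted exact permutation p of 0.0917. Without the same 2 arrays r was 0.89 and 0.87 (exact permutation p = 0.0583 for each). Without saline 1 alone r was 0.80 and 0.79 (adjusted exact permutation p = 0.102 for each). The Actn2 probe with the outlier flag was not in this test and was not lowest on saline 1. Within groups r was 0.99 (saline) and 0.83 (P. gingivalis) for Actn2. For Ldb3 it was 0.97 (saline) and 0.77 (P. gingivalis). Myoz1 gave r = 0.73 (adjusted exact permutation p = 0.0629) and rho = 0.93 (adjusted 0.0223), and Ankrd2 r = 0.79 (adjusted exact permutation p = 0.0629). Myot, Tcap, Csrp3, Myoz2 and Ankrd1 gave r of 0.61, 0.54, 0.51, 0.34 and 0.30, none past the threshold. The relation of Actn2 was not confined to fast markers. Against the mean of the 10 slow fibre markers, another 10 relations added after the data had been seen, Actn2 gave r = 0.88 (adjusted exact permutation p = 0.0089) and rho = 0.90 (adjusted 0.0456), and r = 0.79 without saline 1 and saline 4 (exact permutation p = 0.0625). None of the other 9 genes passed against the slow markers, and Actn3 gave r = 0.58 (adjusted exact permutation p = 0.133). For Actn2 and the slow markers r was 0.85 within the saline arrays and 0.81 within the P. gingivalis arrays. The scaling of an array is shared by every gene on it. When arrays were scaled to the skeletal muscle markers, Actn3 alone passed (r = 0.98, adjusted exact permutation p = 0.0015), while r was 0.51 for Actn2 and 0.45 for Ldb3. With the mean of its kept probes in place of the brightest kept, Actn2 gave r = -0.15. That mean, like the main fit, left out the brighter probe with the outlier flag. It took in the far dimmer probe to another transcript at chr13:12400548-12400607. The values of that probe ran from -0.77 to 0.35, a wider span than that of the brightest kept probe.

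Ldb3 encodes cypher, a PDZ and LIM domain protein that binds alpha-actinin. Its values were 7.02, 7.23, 7.19 and 7.11 with saline and 7.15, 7.36, 7.13 and 7.21 with P. gingivalis. The groups overlapped, with a difference of 0.075 ± 0.074 (SE; 95% interval -0.10 to 0.25), adjusted p = 0.600 by limma. The probe lies at chr14:35374689-35374748. A probe to another Ldb3 transcript, at chr14:35340222-35340281, gave -0.04 ± 0.084 (SE), adjusted p = 0.833 in limma's fit of single probes.

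Myot encodes myotilin, an actin cross-linker that binds alpha-actinin and filamin C. It stood at 7.49, 7.49, 7.61 and 7.50 with saline and at 7.69, 7.72, 7.57 and 7.56 with P. gingivalis (chr18:44515213-44515272). Saline 3 lay within the P. gingivalis range, apart from the other saline arrays. The difference was 0.11 ± 0.062 (SE; 95% interval -0.03 to 0.25), adjusted p = 0.369 by limma.

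Among the stretch-responsive genes, Csrp3 encodes muscle LIM protein, and it alone of the 10 genes was lower on average in the P. gingivalis arrays. It read 7.25, 7.44, 7.41 and 7.18 with saline and 7.13, 7.56, 7.03 and 7.16 with P. gingivalis (probe across an intron, chr7:56086063-56087977). P. gingivalis 2 was the highest of the 8 arrays and the other 3 P. gingivalis arrays the lowest. The difference was -0.10 ± 0.12 (SE; 95% interval -0.38 to 0.18), adjusted p = 0.671 by limma, and -0.21 without P. gingivalis 2 (smallest adjusted p with any 1 array left out 0.293).

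Ankrd1 encodes cardiac ankyrin repeat protein, strongly induced by injury and load in skeletal muscle. Its values were 1.99, 2.17, 2.04 and 1.99 with saline and 1.52, 2.94, 2.15 and 1.99 with P. gingivalis (chr19:36186809-36186868). The saline arrays agreed closely, while P. gingivalis 1 was the lowest and P. gingivalis 2 the highest of all arrays, 2.69-fold apart. The within-group SD exceeded that of 90.1% of genes. The difference of 0.11 ± 0.26 (SE; 95% interval -0.51 to 0.72), adjusted p = 0.853 by limma, became -0.16 without P. gingivalis 2 and 0.32 without P. gingivalis 1.

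Ankrd2, its relative in slow muscle, read 8.21, 8.37, 8.35 and 8.27 with saline and 8.35, 8.68, 8.29 and 8.42 with P. gingivalis (chr19:42118566-42118625). The groups overlapped and P. gingivalis 2 stood above the rest. The difference was 0.14 ± 0.092 (SE; 95% interval -0.08 to 0.35), adjusted p = 0.445 by limma, and 0.056 without P. gingivalis 2.

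Of the 10 genes, 9 were highest on P. gingivalis 2, Actn3 being the exception, and all 10 were above their own mean there. This was not particular to them. Of the 8 skeletal muscle markers, Acta1, Ckm, Mb, Myh2, Ttn and Neb were also highest on P. gingivalis 2, while Myh7 and Ryr1 were not. The share of all genes highest on that array was not counted. On saline 1 none of the 10 was above its mean, and 5 had their lowest value. P. gingivalis 3, filed in the same group as P. gingivalis 2, had 3 of 10 above the mean. The part of the low 75th percentile and spike-in slope of P. gingivalis 2 in these values was not tested. Apart from Actn3 and Ankrd1, no gene of the 10 spanned more than 1.44-fold over the 8 arrays.

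**Figure D4:**
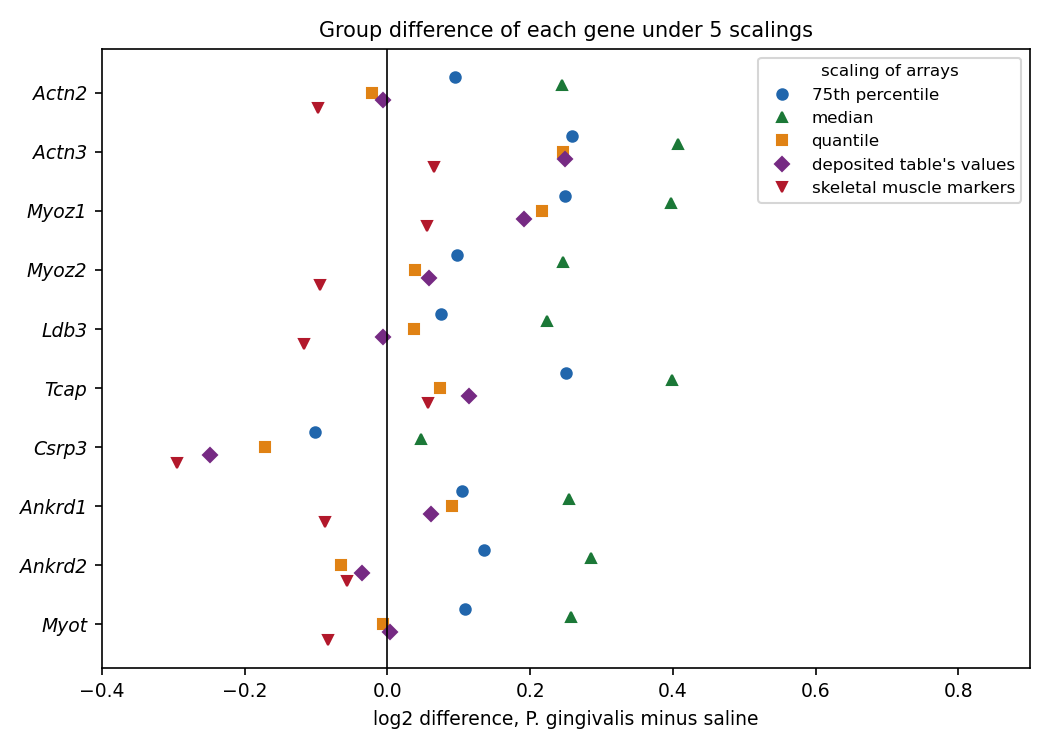
Log2 difference, P. gingivalis minus saline, for each of the 10 genes under 5 ways of scaling the arrays (75th percentile, median, quantile, the values of the deposited table with groups from the sample labels, and the mean of 8 skeletal muscle markers). Actn3, Myoz1 and Tcap are above 0 under all 5, Csrp3 is below 0 under all but median centring, and the other 6 genes lie on both sides of 0.

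Beyond these genes, 27 other genes of the Z-disc scaffold were measured, 17 higher and 10 lower on average in the P. gingivalis arrays. Their median log2 difference was 0.01, 0 passed the adjusted threshold, and 10 had an unadjusted p under 0.05 by limma, 7 of them higher and 3 lower, where 19.7% of all genes did (10.1% higher, 9.66% lower). The groups did not overlap for 9 of the 27, against 13.4% of all genes. Capzb, the beta subunit of the protein that caps thin filaments at the Z-disc, read 4.03, 4.21, 4.25 and 4.25 with saline and 4.49, 4.47, 4.49 and 4.65 with P. gingivalis. The groups did not overlap, with a difference of 0.34 ± 0.072 (SE), adjusted p = 0.0806 by limma. Pdlim5, a PDZ and LIM protein related to cypher, gave 0.24 ± 0.059 (SE), adjusted p = 0.104, and Synm, the intermediate filament protein synemin, -0.19 ± 0.054 (SE), adjusted p = 0.127, again without overlap.

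The 17 other stretch-sensing and titin-binding genes split into 9 higher and 8 lower, with a median of 0.01 and 0 past the adjusted threshold. At an unadjusted p under 0.05 by limma, 3 were higher and 2 lower, against 19.7% of all genes in either direction. Ankrd23, the remaining relative of Ankrd1 and Ankrd2, stood at 7.34, 7.23, 7.47 and 7.46 with saline and at 7.70, 7.65, 7.86 and 7.80 with P. gingivalis. Fhl2, a LIM protein that docks enzymes on titin, stood at 3.36, 3.80, 3.79 and 3.39 with saline and at 3.01, 3.17, 2.95 and 3.07 with P. gingivalis. Xirp2, an actin-binding repeat protein, stood at 5.32, 5.73, 5.50 and 5.53 and at 4.83, 5.26, 5.27 and 5.18. These are the 3 genes of smallest p in the list and the 3 of 17 whose groups did not overlap, against 13.4% of all genes, Ankrd23 lying higher and the other two lower with P. gingivalis. By limma the differences were 0.38 ± 0.078 (SE; adjusted p = 0.0781), -0.53 ± 0.12 (SE; adjusted p = 0.0900) and -0.39 ± 0.12 (SE; adjusted p = 0.157).

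Calcineurin is the phosphatase that the calsarcins hold at the Z-disc, and 13 genes of its pathway were measured, 8 higher and 5 lower, with a median of 0.01. Only 1 of the 13 had an unadjusted p under 0.05 by limma, against 19.7% of all genes. It was Ppp3cb, a catalytic subunit, at 0.18 ± 0.060 (SE), adjusted p = 0.178. The transcription factors Nfatc3 and Nfatc2 gave -0.17 each, with adjusted p of 0.278 and 0.391. Of 12 genes of the YAP and TEAD pathway, whose targets include Ankrd1, 7 were higher and 5 lower, with a median of 0.065 and 0 past the adjusted threshold. Wwtr1, the co-activator TAZ, gave -0.24 ± 0.067 (SE; adjusted p = 0.120). Ccn2, a secreted target of the pathway, gave 0.22 ± 0.062 (SE; adjusted p = 0.123), and the LIM protein gene Ajuba gave 0.25 ± 0.084 (SE; adjusted p = 0.178), each without overlap between the groups. The groups did not overlap for 4 of the 12, against 13.4% of all genes. At an unadjusted p under 0.05 by limma, 2 were higher and 2 lower, against 19.7% of all genes in either direction.

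Markers of other cells were measured on the same arrays because several of the 10 genes are also heart genes. Of 8 heart muscle markers, Nppb and Myl7 did not pass the filter on dim probes. The other 6 summed to 3.11 to 3.21 with saline and 2.89 to 3.03 with P. gingivalis (exact permutation p = 0.0286). Of these, 5 were lower on average, while Tnnt2 was nearly unchanged (0.0034). Myh6 (-0.25), Myl4 (-0.27) and Tnnt2 were the brightest in the sum, and Mybpc3, Nppa and Tnni3 were far dimmer. The summed levels of 6 tendon markers (5.23 to 5.54 and 4.84 to 5.49), 6 fat cell markers (6.96 to 7.37 and 7.10 to 7.26), 5 macrophage markers (2.09 to 3.27 and 2.30 to 2.90) and 5 Schwann cell markers (4.11 to 4.24 and 3.91 to 4.26) overlapped between the groups. No marker passed the adjusted threshold, and the part of these cells in the levels of the 10 genes was not tested.

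In the authors' deposited table, 0 of 13 rows of the 10 genes had an adjusted p under 0.05, against 431 of all 28250 rows. The smallest was that of Csrp3, at 0.251. The authors' deposited table lists log2 fold changes of -0.11 for Tcap, -0.19 for Myoz1 and 0.25 for Csrp3, its columns named P. gingivalis minus those named saline, which are of the opposite sign to those above because its columns carry the groups exchanged.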

How the data were processed

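Soleus RNA (200 ng, dye Cy3) from 8 samples was hybridised to 1-colour Agilent arrays. The deposited intensity values came from Agilent Feature Extraction 11.0.1.1 per the file headers (11.1 per the submitters' processing notes), background-subtracted, with probe positions in build mm9 per the file headers. Signals were taken to log2 and each array's 75th percentile over gene spots was subtracted. Control spots were left out, and so were probes with an outlier flag on any array (239 probes). Of 56605 probes, 33636 were kept as well above background on at least 4 arrays, and each of 22221 genes was read by its brightest kept probe. All 10 genes described were well above background on all 8 arrays, with 0 saturated. Probes were named by RefSeq accession (32994), current symbol (10224) or older symbol (520), and 12867 kept the file's name.

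The P. gingivalis and saline groups were set against each other by limma (version 3.58.1, R 4.3.3; lmFit, eBayes, two-sided, Benjamini-Hochberg over all genes), tested on simulated data first. Relations across arrays and list sums used exact permutation tests. The deposited table holds log2 values with p-values by the authors. The score columns (moderated statistic, log odds) that the authors deposited there stayed unused. Named were the 10 genes, each pathway list's 3 genes of smallest p, and others only where a result turned on them. The genes and lists were chosen with earlier results of these data known. Precision is limited by having 4 arrays per group. The alternatives were background correction, scaling, the muscle-marker scaling added after seeing the data, filter, probe rule, flags, replicate block, variance model, array weights, the authors' values and arrays left out.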

Additional observations from a re-analysis of the deposited data

Results flagged for a closer look

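Over 30 pairs of a probe and a group, 3 held 1 array set apart from the other 3 of its group by Dixon's test at the 95% level, where chance gives about 1 in 20. Actn3 on P. gingivalis 3 stood at 2.42, below the nearest P. gingivalis array at 4.11. Myoz2 on saline 4 stood at 7.13, below the nearest saline array at 7.20, a gap that is small in itself. Myot on saline 3 stood at 7.61, above the nearest saline array at 7.50.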

How the results depend on the processing

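The number of genes past the threshold, 26, became 453 with normexp background correction, 221 with quantile normalization, 2385 with median centring, 5154 with no filter on dim probes, 261 when probes had to pass the background test on all 8 arrays, 9 with the mean of all probes, 57 over single probes, 567 with a trended and robust variance, 199 with array weights, 362 with the authors' processed values, 4467 when scaled to the skeletal muscle markers (a scaling chosen after seeing the data), and 0 without saline 1 and P. gingivalis 3. Leaving out 1 array gave 2 to 6. A block for replicate number gave 0. The numbers do not pair the samples: same-numbered deviations correlated at 0.064, -0.058, -0.041 and 0.231, and 1 of 4 saline and 2 of 4 P. gingivalis arrays correlated best with their own number.

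The count of the 10 genes past the threshold stayed 0 except under median centring, with 3 (Tcap 0.40, adjusted p = 0.0268, Myoz1 0.40, adjusted p = 0.0376, and Myoz2 0.25, adjusted p = 0.0355), and under the trended and robust variance, with 1 (Tcap, adjusted p = 0.0470, all by limma). Over all settings the smallest adjusted p by limma was 0.0268 for Tcap, 0.0376 for Myoz1 and 0.0355 for Myoz2. Directions turned with quantile normalization (Actn2 -0.021, Ankrd2 -0.064, Myot -0.0059), median centring (Csrp3 0.047), the mean of all probes (Actn2 -0.060), the authors' processed values (Actn2 -0.0067, Ldb3 -0.0054, Ankrd2 -0.036), the muscle-marker scaling (Actn2 -0.097, Myoz2 -0.095, Ldb3 -0.12, Ankrd1 -0.088, Ankrd2 -0.057, Myot -0.084), without 1 array (Actn3 from -0.52 without saline 1 to 0.70, Ankrd1 from -0.16 without P. gingivalis 2 to 0.32) and without saline 1 and P. gingivalis 3 (Actn3 -0.084). The cause was not tested. The number of genes correlated with the fast markers, 3, became 5 with median centring and 1 with the muscle-marker scaling, and ranged from 0 (without saline 1) to 4 with 1 array left out. Its correlations turned for Actn2 with the mean of all probes (-0.15), for Myoz2 (-0.52) and Myot (-0.046) with the muscle-marker scaling, and for Ankrd1 with 1 array left out (from -0.21 without P. gingivalis 2 to 0.53).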
